A study of Xenopus laevis with 27 samples.

Results

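Brains of the African clawed frog Xenopus laevis were compared between 3 libraries from frogs given progesterone treatment and 3 libraries from frogs with no device, which is 6 of the 27 libraries of the series. In the series a wearable bioreactor delivered progesterone locally to the adult hindlimb, and limb stump and blastema, the growth that forms on an amputated limb, were sequenced beside the brain. A sham group carried the silk device without the hormone. Progesterone and no-device brains differ in both hormone and device, so hormone and device cannot be told apart in this comparison. The words "with progesterone" below mean with the progesterone device. The 2 groups were taken from the tissue and treatment labels. The comparison and all gene lists were chosen with earlier results of these data known. The labels give no strain, sex, age, dose, sampling time or frog for any library, so it is not known here whether each library is a separate animal. P-values below therefore measure only the spread between these libraries, which may be technical.

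Progesterone is a steroid hormone that acts through a nuclear receptor, which binds DNA and switches target genes, and through membrane proteins such as the PAQR family and PGRMC1. In vertebrate brains these routes act on neuroendocrine neurons of the hypothalamus, on glia and on myelin, and the steroid can also be made inside the brain. The hypothalamus releases peptides that set hormone output of the pituitary gland below it, and the choroid plexus, an epithelium inside the ventricles, makes cerebrospinal fluid. Xenopus laevis carries 2 subgenomes, so many genes have a .L and a .S copy, called homeologs, and reads of 40 nt cannot always tell near-identical copies apart.

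Both defining neural markers that were looked up were present. The neuronal gene snap25.L, coding a synaptic fusion protein, had 376, 393 and 363 FPKM (reads scaled for gene length and for library depth) in progesterone brains and 567, 327 and 555 FPKM in no-device brains. Myelin basic protein, mbp.S, reached 1508, 1308 and 1388 FPKM in progesterone brains and 2136, 1140 and 2141 FPKM in no-device brains. Both genes were abundant in every library, and the groups overlapped. The astrocyte marker gfap was not found under that name in the table. Estimated depth was 1636586 to 2092612 reads per library in progesterone brains and 1392558 to 1892520 in no-device brains. One read in a gene of 1 kb was then worth 0.478 to 0.718 FPKM, so values near 1 FPKM rest on few reads.

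Some libraries were not independent of each other, and this limits every result that follows. No-device libraries 1 and 3 differed beyond counting error at 0.28% of 18912 genes, against 9.56% and 10.7% when either was set beside no-device library 2. They were averaged and counted as 1 sample, so the no-device group holds 2 samples. Silk-device library 3 was nearly as close to those 2 libraries, differing at 0.34% and 0.348% of genes. Progesterone library 3 lay between progesterone libraries 1 and 2. A weighted mean of 45.7% of library 1 and the rest of library 2 left only 0.678% of 19325 genes different from library 3, and every other pair of brain libraries mixed in the same way left at least 1.77%. The labels say nothing of a shared source, and library 3 was kept as a sample; results are given with and without it where it matters.

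Very few genes differed beyond the spread between libraries. Of 27639 tested genes, limma with Benjamini-Hochberg adjustment called 1, the uncharacterised locus LOC108717646, which is 0.00362% of the genes tested. LOC108717646 was listed at 0 FPKM in progesterone libraries 1, 2 and 3, against 28.8, 21.4 and 9.18 FPKM in no-device libraries 1, 2 and 3. All no-device libraries were above all progesterone libraries, and the gene fell by 4.41 ± 0.17 (SE) on the log2(FPKM + 1) scale with progesterone (limma adjusted p = 0.0177). This SE leaves out spread, since the progesterone values were all 0 and no-device libraries 1 and 3 were averaged. The log2 difference was -4.25 ± 0.39 with 6 separate libraries and -5.05 ± 0.76 with limma-voom. A count of 0 allows up to 4.28 FPKM in a progesterone library (3 reads per library, counting error only). For the locus, the no-device mean of 20.2 FPKM was 4.72 times that limit. This ratio leaves out the spread and counting error of the no-device values, of which the lowest was 9.18 FPKM. The no-device values rest on an estimated 22.1, 12.8 and 7.42 reads. In silk-device brains it was at 0, 0 and 8.04 FPKM, and leaving out any 1 sample removed the call, with limma adjusted p of 0.175 to 0.69. The LOC108717646 call was also lost with all brain samples in one fit (limma adjusted p = 0.791), with 6 separate libraries (0.0946, and 0.694 with a replicate block) and with limma-voom (0.31), and the locus was not tested under the filter of 10 estimated reads.

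Unadjusted p-values under 0.05 were found for 736 genes that were higher with progesterone (2.66%) and 663 that were lower (2.4%), together 5.06% of the genes tested. Every progesterone library lay above every no-device library for 1602 genes (5.8%) and below for 1957 genes (7.08%). With a log2 difference of at least 1 added, 231 genes (0.836%) were higher and 187 genes (0.677%) lower. The median log2 difference of all tested genes was -0.02, and the median size of a difference in either direction was 0.2. Without progesterone library 3 no gene was called by limma, and 1106 genes had an unadjusted p under 0.05. The smallest p that a two-sided exact rank test can give with 3 samples against 2 is 0.2, so single values were tested only through the limma fit across all genes.

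**Figure D1:**
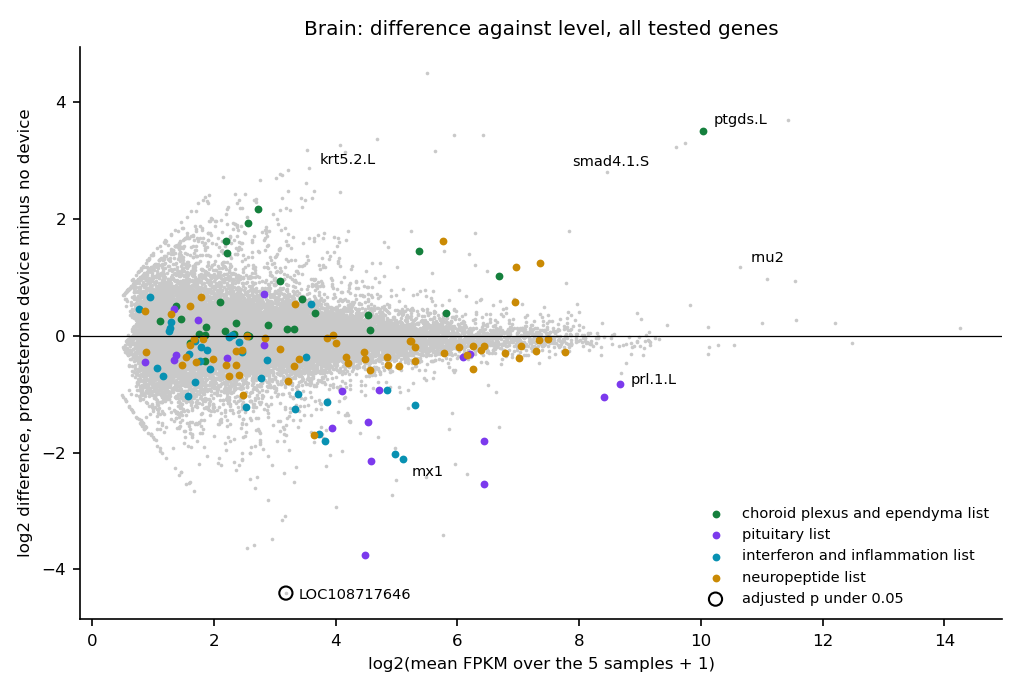
Each grey point is one of the 27639 tested genes in brain, with log2 of the mean FPKM plus 1 on the horizontal axis and the log2 difference of progesterone device minus no device on the vertical axis. Coloured points are members of 4 gene lists, and the ring marks LOC108717646, the one gene past the threshold, at -4.41. Pituitary and interferon genes lie mostly below the zero line and choroid plexus genes mostly above it.

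Among genes with a name, the smallest p belonged to smad4.1.S, annotated as a copy of Smad4, the shared mediator of TGF-beta and BMP signals. It had 1254, 1133 and 1225 FPKM in progesterone brains, against 202, 105 and 108 FPKM in no-device brains. The groups were far apart, with every progesterone library near the same level. The log2 difference was 3.23 ± 0.23 (SE; limma adjusted p = 0.143), and leaving out 1 sample at a time kept it between 2.95 and 3.5. The call depended on the fit. With limma and Benjamini-Hochberg adjustment it passed with a pseudocount of 0.1 (adjusted p = 0.045) or 5 (0.00806), a mean of at least 5 FPKM (0.029), at least 10 estimated reads (0.0237), a variance trend (0.0159) or limma-voom on estimated reads (6.716e-06). It did not pass with the 6 libraries kept separate (limma adjusted p = 0.0946, and 0.694 with a replicate block), with no filter (0.177), with median-of-ratios or upper-quartile scaling (0.156 and 0.158), with all brain samples in one fit (1) or without any 1 sample (0.178 to 0.771). The .L homeolog, smad4.1.L, had 7.87, 7.87 and 9.96 FPKM in progesterone brains and 7.1, 8.49 and 6.82 FPKM in no-device brains, and these overlapped.

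The gene smad4.1.S was also abundant in libraries that had no progesterone. Silk-device brains had 23426, 20650 and 1531 FPKM of it. The lowest of these, silk-device library 3, is the one otherwise near-identical to no-device libraries 1 and 3. The gene took 0.554% to 0.613% of estimated reads in progesterone brains and 0.0515% to 0.0986% in no-device brains, while in silk-device libraries 1 and 2, with 646647 and 813888 estimated reads, it took 11.5% and 10.1%. In a progesterone blastema library with 179205 estimated reads it took 25.5%. Other shallow libraries had smaller shares, with 1.1% in no-device blastema library 2 (404132 reads) and 0.517% in library 3 (550800 reads). Stump progesterone libraries 1 and 3, with 495458 and 492978 reads, took 15.9% and 2.05%. In stump the gene had 182, 262 and 225 FPKM with no device, and 32549, 1976 and 4187 FPKM with progesterone. Silk-device stumps had 42416, 64231 and 1438 FPKM. The part of depth or of library make-up in this gene's level was not tested.

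The 13 higher named genes with the smallest p among those that separated all 6 libraries, smad4.1.S included, spanned log2 differences of 0.92 to 3.23, all with limma adjusted p above 0.05. The U2 spliceosomal RNA rnu2 had 2189, 2083 and 1934 FPKM in progesterone brains and 756, 894 and 1091 FPKM in no-device brains, a log2 difference of 1.18 ± 0.17 (limma adjusted p = 0.41). The libraries were made from total RNA after depletion of ribosomal RNA. The chemokine scavenging receptor ackr4.L had 5.08, 5.95 and 6.79 FPKM with progesterone and 1.35, 1.54 and 2.06 FPKM with no device. The secreted glycoprotein gene fstl1.L had 7.51, 7.93 and 8.57 FPKM with progesterone and 2.74, 3.87 and 4.13 FPKM with no device. The plasma membrane calcium pump atp2b1.L stood at 25.7, 40.7 and 34.1 FPKM with progesterone, above 11.7, 15.1 and 12 FPKM with no device. The rest of the 13 included the desmosomal plakophilin pkp2.L, the osteocalcin gene bglap2.S, the secretory pathway genes tram1.L, tmem208.S and ergic1.L, and the zinc finger gene znf852.S. The pkp2.L and tram1.L values rested on a mean of 5.67 and 5.33 estimated reads per progesterone library and 1.67 and 1.34 per no-device library. Each of these names belongs to a second locus as well, with log2 differences of 0.85 for pkp2.L and -0.23 for tram1.L. The homeolog znf852.L overlapped, with 4.05, 4.6 and 4.82 FPKM with progesterone and 5.78, 3.72 and 5.22 FPKM with no device. So did tmem208.L, with 5.57, 5.99 and 3.77 FPKM against 4.79, 8.8 and 5.04 FPKM with no device. In the homeologs atp2b1.S, ergic1.S and tram1.S every progesterone library was above every no-device library.

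The 13 lower genes spanned log2 differences of -1.5 to -0.7, and limma adjusted p was above 0.05 for each. The cytochrome c oxidase assembly factor cox19.S had 5.68, 4.38 and 4.33 FPKM in progesterone brains and 12.4, 13.4 and 11.7 FPKM in no-device brains, a log2 difference of -1.25 ± 0.2 (limma adjusted p = 0.434). The fatty aldehyde dehydrogenase aldh3a2.S had 20.7, 17.1 and 19.3 FPKM with progesterone and 32.5, 32.8 and 36.3 FPKM with no device. Both pairs of groups were clear of each other. Twisted gastrulation, twsg1.S, a secreted BMP-binding protein, had 9.08, 8.93 and 7.47 FPKM with progesterone and 13.2, 14.9 and 17 FPKM with no device. The histone acetyltransferase hat1.S had 4.09, 4.4 and 4.6 FPKM with progesterone and 7.77, 7.74 and 7.59 FPKM with no device. The remaining genes included the U6-associated lsm3.L, the mTORC1 inhibitor subunit nprl2.S, the glycosylation enzyme alg1.L, the mitochondrial lipid transfer gene prelid1.S and the transglutaminase tgm5.L. For hat1, prelid1 and twsg1 the other homeolog was not separated between the groups, with log2 differences of 0.08, -0.01 and -0.12.

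**Figure D2:**
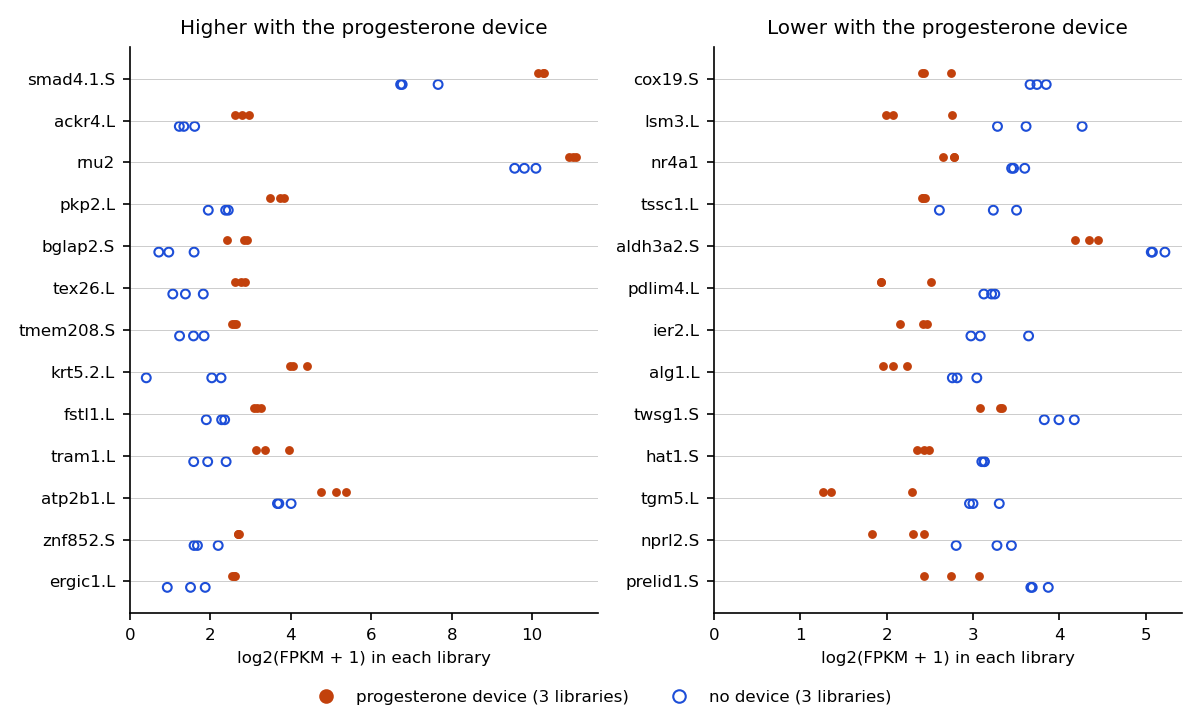
Level of the 13 higher and 13 lower named genes in every brain library, as log2(FPKM + 1); filled points are the 3 progesterone libraries and open points, just below them, the 3 no-device libraries. Within each gene the 2 groups do not overlap, because that was a condition for naming it; no-device libraries 1 and 3 are near-identical.

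Neuropeptide genes lay lower with progesterone as a group, although no member passed the limma test. Of 60 tested copies of genes for neuropeptides, their processing enzymes and granule proteins, 50 had a negative log2 difference (52.6% of all tested genes did), and the median was -0.26 against -0.02 over all tested genes. All 3 progesterone libraries lay below all 3 no-device libraries for 17 of the 60, or 28.3%, where the share over all genes was 7.08%. The reverse held for 2 members, 3.33% against 5.8%. An unadjusted p under 0.05 was found for 5 lower members (8.33%, against 2.4% of all genes) and 1 higher one (1.67%, against 2.66%). Other lists also exceeded the share of all genes, with 21.7% for chaperones and heat shock genes. The shares were 19.2% for V-ATPase subunits and 19.2% for steroid synthesis and metabolism. Without progesterone library 3 the non-overlapping lower members numbered 20, or 33.3%, where 11% of all genes did so. V-ATPase subunits (34.6%) and steroid synthesis and metabolism (30.8%) had similar shares in that setting. Without no-device library 2 they numbered 25, or 41.7%, against 15.8%, but that setting is not particular to neuropeptides, since neurons (48.8%), astroglia (50%) and oligodendrocytes (44%) had larger shares in it. Without progesterone library 2 the neuropeptide median was -0.17. Regional marker genes moved beside the neuropeptides, with a median of -0.18 for 33 forebrain copies, 23 of them negative, and 0.24 for 28 midbrain and hindbrain copies, 18 of them positive. Without no-device library 2 these medians were -0.14 and -0.12, and the part of the dissected region in the neuropeptide values was not tested. Set against the no-device level, the neuropeptide median was -0.17, -0.31 and -0.24 in progesterone libraries 1, 2 and 3, and -0.32, -0.09 and 0.1 in silk-device libraries 1, 2 and 3. In bulk tissue, fewer cells of a type in the dissected piece and less RNA per cell cannot be told apart.

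Hypothalamic releasing hormones were among the lower members. The lower members named here and in the next paragraph, apart from cartpt.S, were chosen after their values were seen. Corticotropin-releasing hormone, crh.S, which drives the stress axis, had 3.17, 2.59 and 4.14 FPKM in progesterone brains and 4.15, 6.17 and 6.79 FPKM in no-device brains. Gonadotropin-releasing hormone, gnrh1.L, had 13.7, 4.38 and 1.84 FPKM with progesterone and 20, 18 and 18.9 FPKM with no device. The gnrh1.L values with no device were close together, those with progesterone spread widely, and silk-device brains had 0, 0 and 23.7 FPKM. Its log2 difference was -1.7 ± 0.68 (limma adjusted p = 0.931), on a mean of 3.67 estimated reads per progesterone library and 9 per no-device library. Thyrotropin-releasing hormone, trh.L, had 38.5, 29.2 and 33.4 FPKM with progesterone and 43.7, 45.3 and 47.4 FPKM with no device, again without overlap. Its homeolog trh.S overlapped, with 35.9, 17.6 and 21.9 FPKM against 35.8, 28.5 and 32.8 FPKM with no device.

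Peptides of wider brain use showed the same order. Somatostatin 2, sst.2, had 61.4, 53.2 and 76.2 FPKM in progesterone brains and 97.8, 85.9 and 105.8 FPKM in no-device brains, a log2 difference of -0.56 ± 0.23. The appetite-suppressing peptide gene cartpt.S had 7.56, 7.31 and 7.78 FPKM with progesterone and 11.9, 10.5 and 11.9 FPKM with no device, with a log2 difference of -0.51 ± 0.17 (limma adjusted p = 0.931). Neurotensin, nts.L, had 15.6, 21.5 and 18.9 FPKM with progesterone and 36.3, 25.3 and 27.8 FPKM with no device. Each of these 3 genes kept the groups apart. The tachykinin gene tac1.S, the enkephalin gene penk.L, gastrin-releasing peptide grp.L and the prohormone convertase pcsk1.S were also non-overlapping and lower.

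The reverse order was seen in chgb.L and avp.L. Chromogranin B, chgb.L, a protein of secretory granules, had 123, 167 and 132 FPKM in progesterone brains and 96.2, 86.7 and 105.9 FPKM in no-device brains. Vasotocin, avp.L, the amphibian antidiuretic peptide, had 97.4, 57.3 and 56.4 FPKM with progesterone and 40.7, 9.87 and 51 FPKM with no device. The avp.L groups were apart, but the log2 difference of 1.61 ± 0.65 dropped to 0.56 when no-device library 2 was left out. The 43 tested neuronal copies had a median log2 difference of -0.04 with all samples. Of these, 3 were apart and lower (6.98%, against 7.08% of all genes), and none had an unadjusted p under 0.05. Some other neural lists had larger shares apart and lower. These were 18.2% for astroglia, 14.7% for sodium and calcium channels, 12.8% for transmitter receptors and 12% for transmitter synthesis and transport. Oligodendrocytes and myelin had 8% and potassium channels 5.26%, so lower values were not particular to neuropeptides. The difference between the neuropeptide and neuronal lists was not tested.

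**Figure D3:**
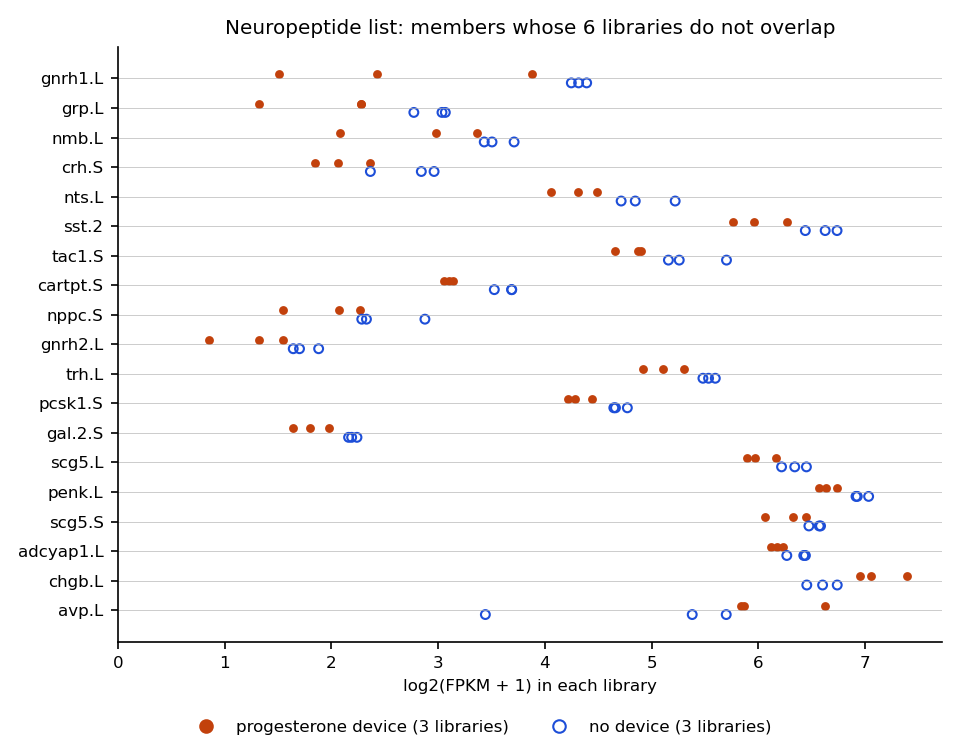
Level of the 19 neuropeptide-list members whose libraries do not overlap, as log2(FPKM + 1) in each library; filled points are progesterone brains and open points, just below them, no-device brains. In 17 genes the progesterone points are to the left, and in chgb.L and avp.L they are to the right.

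No steroid receptor gene passed the test, and log2 differences in this list ran from -0.58 to 1.63. The progesterone receptor was near the detection limit, with pgr.L at 0.42, 0.54 and 0.57 FPKM in progesterone brains and 0.49, 0.79 and 0.35 FPKM in no-device brains, below the level needed for testing. The glucocorticoid receptor nr3c1.L had 10.8, 12.7 and 12.1 FPKM with progesterone and 10.7, 14.5 and 10.6 FPKM with no device, and the membrane progesterone-binding protein pgrmc1.L had 35.4, 38.2 and 43.4 FPKM against 50, 37.9 and 47.7 FPKM with no device. Both overlapped. The membrane progestin receptor paqr6.S had the smallest p among members averaging at least 5 FPKM, with 24, 23.2 and 22.1 FPKM in progesterone brains and 15.6, 18.4 and 18 FPKM in no-device brains (log2 difference 0.37 ± 0.17, limma adjusted p = 0.931). The membrane progestin receptor paqr5.L, with the widest difference, had 0, 5.29 and 3.72 FPKM in progesterone libraries 1, 2 and 3 and was listed at 0 in every no-device library. Over 27 tested copies of receptors and binding proteins the median log2 difference was -0.04, and none had an unadjusted p under 0.05. In each direction 2 copies were apart (7.41%), near the 5.8% of all genes that were higher and the 7.08% that were lower.

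Genes known in vertebrates to respond to steroids gave a similar picture. Of 33 tested copies, 14 had a positive difference (47.4% of all genes did) and 19 a negative one. Only nfkbia.L and dusp1.L had an unadjusted p under 0.05, both higher (6.06%, against 2.66% of all genes). The NF-kappaB inhibitor nfkbia.L had 12.2, 12.3 and 14.1 FPKM in progesterone brains and 5.61, 8.66 and 11 FPKM in no-device brains, a log2 difference of 0.54 ± 0.18 (limma adjusted p = 0.931). The phosphatase gene dusp1.L had 8.91, 10.6 and 9.81 FPKM with progesterone and 5.86, 5.6 and 8.26 FPKM with no device. In both, every progesterone library was above every no-device library. The glucocorticoid-induced genes tsc22d3.L, per1.L and klf9.L overlapped between the groups, with log2 differences of 0.07, -0.06 and 0.16. The chaperone gene fkbp5 was not found under that name. Steroid and cholesterol synthesis genes had medians of -0.12 over 26 copies and -0.03 over 39 copies. Of the steroid synthesis copies 5 were apart and lower (19.2%, against 7.08% of all genes) and 0 apart and higher (5.8% of all genes). In the cholesterol list 5 were apart and lower (12.8%) and 2 apart and higher (5.13%). The cholesterol synthesis gene fdps.S was lower at 8.38, 10.5 and 8.16 FPKM with progesterone against 11.3, 14.6 and 19.6 FPKM with no device.

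Immediate early genes, which neurons switch on within minutes of activity, split by gene. The orphan receptor nr4a1 had 5.86, 5.3 and 5.85 FPKM in progesterone brains and 10.1, 11.1 and 9.91 FPKM in no-device brains, a log2 difference of -0.79 ± 0.17 (limma adjusted p = 0.785). Both copies of ier2 had lower values with progesterone, ier2.L with 4.52, 3.47 and 4.37 FPKM against 6.87, 7.48 and 11.5 FPKM with no device. For ier2.S the values were 2.55, 2.61 and 2.19 FPKM with progesterone and 5.97, 3.84 and 6.78 FPKM with no device. These 3 genes kept the groups apart, whereas fos.L and egr1.S overlapped. The list of 46 tested copies had a median of -0.02, with 22 positive and 24 negative differences that ran from -0.87 to 2.2. In this list 5 copies were apart and lower (10.9%, against 7.08% of all genes). Another 4 were apart and higher (8.7%, against 5.8% of all genes). At an unadjusted p under 0.05, 4 members were lower (8.7%, against 2.4% of all genes) and 2 higher (4.35%, against 2.66%).

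The same 3 genes had positive differences in the limb stump, none past the threshold there. The progesterone minus no-device difference in stump, where the median of all genes was 0.58, was 2.9 ± 0.6 for nr4a1, 2.5 ± 0.54 for ier2.L and 1.95 ± 0.47 for ier2.S on the log2 scale. The brain difference minus the stump difference was -3.69 ± 0.63 for nr4a1 (limma adjusted p = 0.084) and -3.37 ± 0.54 for ier2.L (limma adjusted p = 0.0761), so neither passed the threshold. Across 33897 genes, 5 passed that test (0.0148%), and their brain values were at most 1.6 FPKM in every library. With median-of-ratios or upper-quartile scaling 0 passed, while 3976 and 4028 had an unadjusted p under 0.05. Between brain and blastema limma called 0 of 40369 genes (0%), although 2296 had unadjusted p-values below that level. The median size of a progesterone difference was 0.2 in brain, 0.753 in stump and 0.587 in blastema.

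Progesterone libraries differed among themselves in choroid plexus genes. Prostaglandin D synthase, ptgds.L, a secreted carrier protein of the choroid plexus and meninges, had 14.9, 3151 and 1936 FPKM in progesterone libraries 1, 2 and 3, against 111, 12.9 and 120 FPKM in no-device libraries. Klotho, kl.S, had 0.27, 17.2 and 9.81 FPKM with progesterone and 0.36, 0.49 and 0.25 FPKM with no device. The chloride channel gene clic6.L had 0.18, 14.9 and 8.28 FPKM with progesterone and 1.2, 0 and 1.13 FPKM with no device. In all 3 genes progesterone libraries 2 and 3 stood far above the other 4 libraries, while library 1 was at the no-device level. The transcription factor otx2.L and the lysophospholipase enpp2.L followed the same order at 3.49, 15.5 and 10.4 FPKM and at 41.7, 211 and 148 FPKM in progesterone libraries 1, 2 and 3.

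Over the 30 tested choroid plexus and ependyma copies, 28 had a positive difference and the median was 0.27, but none had an unadjusted p under 0.05 and 3 were apart and higher (10% against 5.8% of all genes). The summed level was 265, 3719 and 2405 FPKM in progesterone libraries and 387, 228 and 386 FPKM in no-device libraries. Most of the sum in progesterone libraries 2 and 3 came from ptgds.L alone, at 3151 and 1936 FPKM. The list median over the no-device level was -0.04, 0.38 and 0.49 in progesterone libraries 1, 2 and 3. Progesterone libraries 2 and 3 exceeded the other 4 libraries by at least 1 on the log2 scale in 7 of the 30 copies (23.3%), where this held for 0.771% of all tested genes. Genes outside the list with that order, chosen after their values were seen, included the bicarbonate transporter slc4a4.S at 1.48, 45.3 and 28.8 FPKM, the carbonic anhydrase ca2.L at 22, 191 and 124 FPKM and darmin.L at 2.68, 2642 and 1540 FPKM in progesterone libraries 1, 2 and 3. In no-device libraries slc4a4.S had 1.27, 1.83 and 2.01 FPKM, ca2.L had 35.1, 16.7 and 30.2 FPKM, and darmin.L had 65.3, 8.05 and 72 FPKM. The choroid plexus markers ttr and folr1 were not found under those names.

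The same order of libraries was found among the higher calls of the authors. The authors' deposited table lists q-values, and 38 genes reach a q-value under 0.05, of which 29 were higher with progesterone and 9 lower. They were called on these same libraries, so a separation of the groups in them is in part fixed by that choice. All 29 higher genes had progesterone libraries 2 and 3 above every no-device library and library 3 between libraries 1 and 2. In 19 of them library 1 was at or under the highest no-device library. The median level of the 29 genes was 0.67, 18.7 and 10.6 FPKM in progesterone libraries 1, 2 and 3 and 0.45, 0.65 and 0.43 FPKM in no-device libraries. Among them were kl.S, slc4a4.S, the anion transporter slc26a9.S, the retinoid enzyme cyp27c1.S and the transcription factor elk4.S, which had 5.01, 185 and 107 FPKM with progesterone and 3.36, 4.12 and 2.73 FPKM with no device. Of the 9 lower genes, 8 kept all 6 libraries apart, where 7.08% of all tested genes were apart and lower. Among the 8, kansl2.S had 2.32, 1.85 and 0 FPKM with progesterone and 8.99, 7.81 and 10.6 FPKM with no device. Its q-value deposited by the authors was 0.000319, and its limma adjusted p here was 0.903. Of the 38 genes, 34 were tested here and limma called 1, LOC108717646, for which the authors' deposited table gives q = 0.0103.

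Genes of connective tissue sheaths were mostly higher in progesterone libraries 2 and 3. The median over the no-device level was -0.05, 0.92 and 0.53 in progesterone libraries 1, 2 and 3. Over 28 tested meninges and fibroblast copies the median log2 difference was 0.51, 20 were positive, 5 had an unadjusted p under 0.05 and were higher (17.9% against 2.66% of all genes), and 7 were apart and higher (25% against 5.8%). The proteoglycan gene bgn.S had 7.8, 11.1 and 7.42 FPKM in progesterone brains and 3.39, 4 and 3.58 FPKM in no-device brains, a log2 difference of 1.02 ± 0.23 (limma adjusted p = 0.791). Collagen VI, col6a1.L, had 7.98, 11.6 and 11.1 FPKM with progesterone and 3.53, 5.14 and 3.66 FPKM with no device, and collagen III, col3a1.S, had 8.83, 28.7 and 19 FPKM with progesterone and 5.64, 6.92 and 5.52 FPKM with no device. In each the groups were apart, and library 2 was the highest progesterone library. Collagen I genes overlapped between the groups. The gene col1a1.L had 13.67, 33.96 and 27.15 FPKM with progesterone and 10.2, 19.51 and 10.18 FPKM with no device. For col1a2.L the values were 15.27, 33.39 and 30.37 FPKM with progesterone and 13.56, 19.56 and 11.93 FPKM with no device. The summed level of the list was 136, 298 and 238 FPKM in progesterone libraries 1, 2 and 3 and 107, 166 and 110 FPKM in no-device libraries. Without progesterone library 3, 2 members were higher at an unadjusted p under 0.05 (7.14%, against 1.98% of all genes) and the median was 0.47.

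Keratin genes, which code the filaments of epithelial cells, were listed after their values were seen, krt5.2.L being among the named genes. The gene krt5.2.L had 14.8, 20.1 and 15.8 FPKM in progesterone brains and 3.11, 0.33 and 3.82 FPKM in no-device brains, a log2 difference of 2.86 ± 0.52 (limma adjusted p = 0.561). Of 12 tested keratin copies, 6 were apart and higher with progesterone (50%, against 5.8% of all genes), none apart and lower (7.08% of all genes), and the median log2 difference was 0.62. The homeologs krt5.7.L and krt5.7.S had 8.59, 13.4 and 11.7 FPKM and 16.3, 25.6 and 18.6 FPKM with progesterone, against 6.28, 5.08 and 4.27 FPKM and 11, 4.84 and 13.4 FPKM with no device. The simple-epithelium keratin krt8.L had 37.6, 42.2 and 40.2 FPKM with progesterone and 26.6, 16.9 and 33.8 FPKM with no device. The copies named so far were picked from those with the groups apart. Progesterone library 1, which had the no-device level of ptgds.L, was therefore above every no-device library in them by choice. The homeolog krt8.S overlapped, with 25.9, 30.6 and 29.5 FPKM with progesterone and 27.2, 17.1 and 22.6 FPKM with no device.

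Several pituitary hormone genes varied from library to library within both groups. Prolactin, prl.1.L, had 454, 51 and 236 FPKM in progesterone libraries 1, 2 and 3 and 86.6, 1206 and 77.1 FPKM in no-device libraries 1, 2 and 3. The glycoprotein hormone alpha subunit, cga.S, had 76.8, 5.47 and 39.6 FPKM with progesterone and 24.1, 272 and 41.1 FPKM with no device. Thyrotropin beta, tshb.S, had 35.6, 0.45 and 17.1 FPKM with progesterone and 3.89, 68.6 and 4.24 FPKM with no device. In all 3 genes no-device library 2 was highest and progesterone library 2 lowest among its group, and the groups overlapped. The pomc copies varied less among progesterone libraries, with pomc.L at 49.44, 62.15 and 64.71 FPKM and pomc.S at 50.93, 66.22 and 47.29 FPKM. Progesterone library 2 was not the lowest in either copy. In no-device libraries pomc.L had 29.85, 151.74 and 39.83 FPKM and pomc.S had 35.15, 137 and 36.91 FPKM. Over 20 tested copies 17 had a negative difference with a median of -0.64, which became 0.12 without no-device library 2. The summed level was 1253, 252 and 677 FPKM in progesterone libraries and 367, 3443 and 398 FPKM in no-device libraries, and the part of attached pituitary tissue in these values was not tested.

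One growth hormone locus, annotated gh1.S and numbered gene44537 in the files, did not overlap between the groups. It had 5.8, 0 and 3.11 FPKM in progesterone brains and 18.6, 78.4 and 21.6 FPKM in no-device brains, a log2 difference of -3.75 ± 0.96 (limma adjusted p = 0.918). A second locus of the same name, gene1525, overlapped between the groups at 66.6, 2.17 and 26 FPKM with progesterone and 35.2, 300.3 and 35.5 FPKM with no device. Short reads may be split between such copies.

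Interferon-induced genes were high in a single library. The antiviral GTPase mx1 had 2.31, 8.86 and 5.51 FPKM in progesterone brains and 3.31, 148 and 3.69 FPKM in no-device libraries 1, 2 and 3. No-device library 2 stood far above the other 5 libraries. The gene mx1, and cga.S, tshb.S, kl.S and clic6.L above, were chosen after their values were seen. The interferon and inflammation list summed to 133, 148 and 148 FPKM in progesterone libraries and 125, 783 and 150 FPKM in no-device libraries. No-device library 2 exceeded the other 5 libraries by at least 1 on the log2 scale in 11 of 33 tested copies (33.3%), against 0.879% of all tested genes. The list's median log2 difference was -0.43, and 0.03 without that library.

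**Figure D4:**
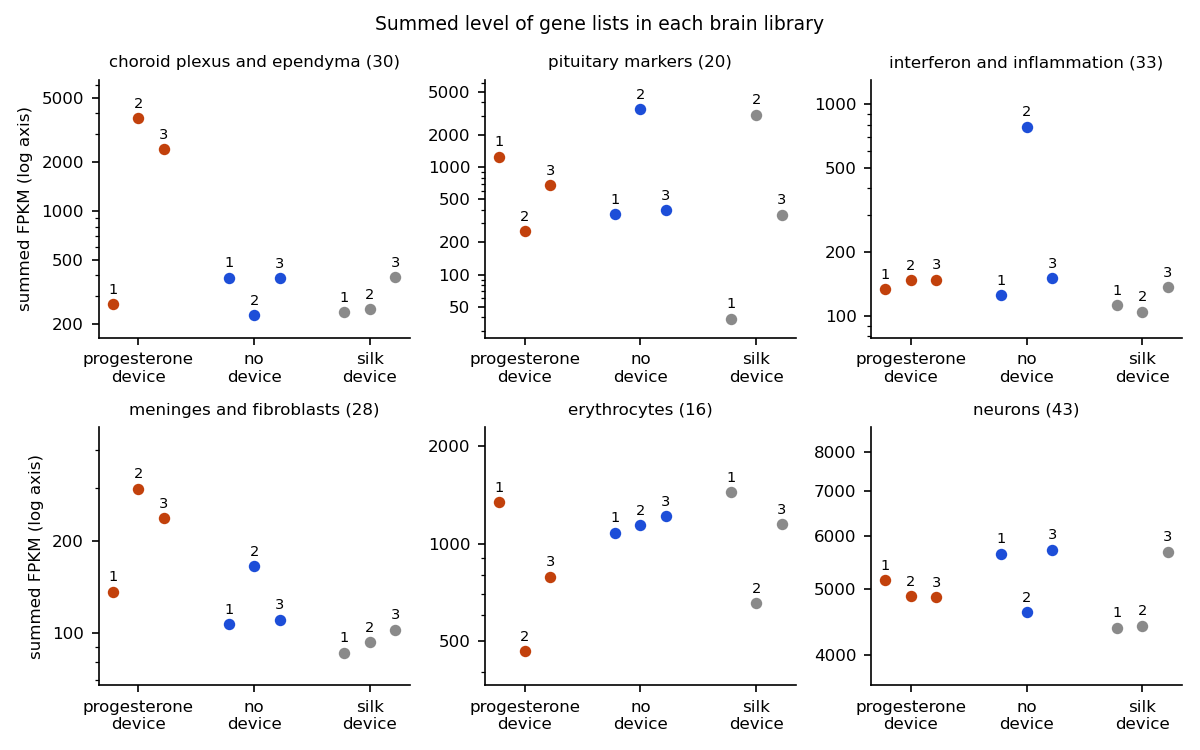
Summed FPKM of 6 gene lists in each brain library on log axes, with the number of tested copies in brackets and replicate numbers beside the points; progesterone libraries are at the left, no-device libraries in the middle and silk-device libraries at the right. Progesterone libraries 2 and 3 stand out for the choroid plexus list at 3719 and 2405 FPKM, of which ptgds.L alone makes up 3151 and 1936 FPKM. No-device library 2 stands out for the interferon list at 783 FPKM and the pituitary list at 3443 FPKM.

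With all samples, lists for the main brain cell types and for housekeeping functions had medians close to that of all genes. Medians were -0.04 for neurons and astroglia, -0.05 for oligodendrocytes and myelin, and -0.06 for microglia and leukocytes. Of 22 astroglia copies, 4 were apart and lower (18.2%, against 7.08% of all genes) and 0 apart and higher (5.8% of all genes). The cell type medians depended on no-device library 2, without which they were -0.15 for neurons, -0.19 for astroglia, -0.27 for oligodendrocytes and 0.17 for microglia. Cytoplasmic ribosomal protein genes had a median of 0 over 121 copies, respiratory chain subunits 0.01 over 115 copies, potassium channels -0.01 over 76 copies and transmitter receptors -0.06 over 78 copies. Of the transmitter receptor copies, 10 were apart and lower (12.8%) and 2 apart and higher (2.56%). Globin genes were variable, with hba1.L at 567, 181 and 321 FPKM in progesterone brains and 468, 510 and 511 FPKM in no-device brains. The erythrocyte list summed to 1343, 464 and 791 FPKM with progesterone and 1081, 1139 and 1217 FPKM with no device. Among ribosomal protein genes one rpl35a.L locus had 31.1, 55.5 and 93.6 FPKM with progesterone and 223, 138.5 and 159 FPKM with no device (log2 difference -1.56 ± 0.48, limma adjusted p = 0.931), while a second locus of that name had a log2 difference of -0.07.

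**Figure D5:**
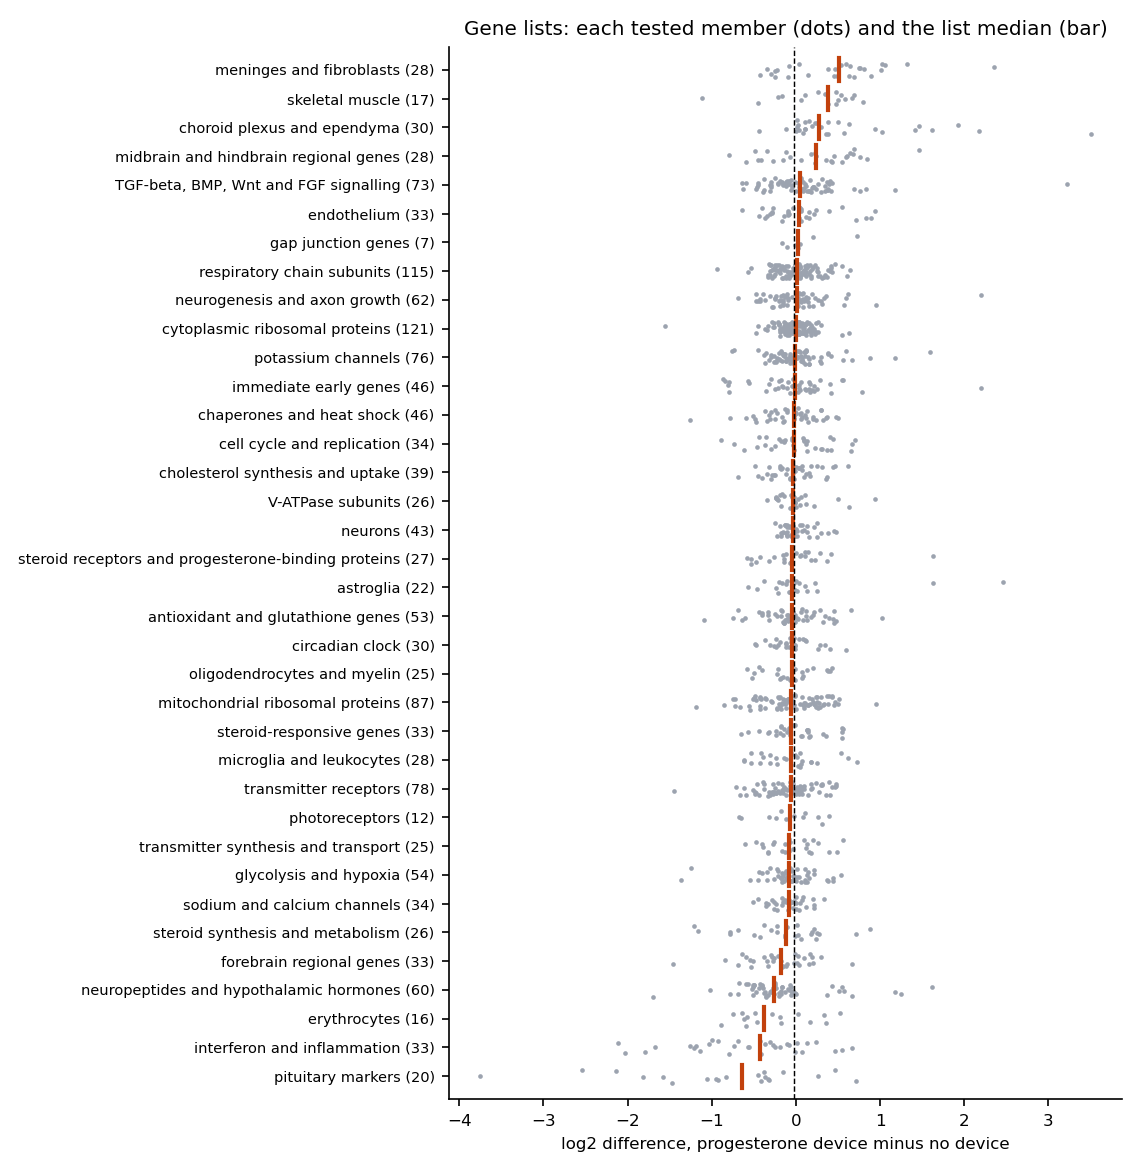
Log2 difference of progesterone device minus no device for every tested member of the 36 gene lists (grey dots), with the list median as a bar and the number of tested copies in brackets. The dashed line is the median of all tested genes, -0.02; list medians run from -0.64 for pituitary markers to 0.51 for meninges and fibroblasts.

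Homeolog pairs moved together only weakly. Across 2585 pairs with both copies at 5 FPKM or more, 58.9% had differences of the same sign, with a Spearman correlation of 0.215 across pairs, which share libraries and may share reads. Where one copy differed by at least 1 on the log2 scale, 27 of 29 pairs (93.1%) had the same sign. These pairs included ca2, cga, prl.1 and avp, and the exceptions were ifitm3 and pdha1. Copies of smad4.1 and slc4a4 had the same sign but unlike sizes. The gene slc4a4.L, the more abundant copy, had 119, 132 and 127 FPKM in progesterone brains and 177, 77.1 and 178 FPKM in no-device brains, and these overlapped.

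Silk-device brains give the values beside these for the shared genes, with the caution that silk-device library 3 resembles no-device libraries 1 and 3. The neuropeptide gene cartpt.S had 14.7, 12.6 and 9.31 FPKM in silk-device brains, krt5.2.L had 0, 0 and 3.38 FPKM, nr4a1 had 4.89, 6.66 and 11.1 FPKM, and ptgds.L had 14, 21.8 and 130 FPKM.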

How the data were processed

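Total RNA extracted with TRIzol (1 µg) was depleted of ribosomal RNA, made into Kapa HyperPrep libraries with 10 amplification cycles and sequenced on a HiSeq2000 for 40 nt, per the labels' protocols. FastQC, Trimmomatic, STAR, RSEM and edgeR are named, without versions, in the submitters' processing notes; which genome build, annotation and strandedness were used is not given in the sources used here. The deposited tables give FPKM per gene and library, made by the authors; the headers do not name this unit, and it was taken from the values. The group means deposited by the authors are a scaled counts-per-million signal and were used only to estimate gene lengths and reads. The log2 fold changes and the p-values and q-values deposited by the authors are quoted only as theirs; their test is not stated in the file headers.

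Differences were computed on log2(FPKM + 1), which understates the change of low genes, and tested with limma 3.58.1 in R 4.3.3 with Benjamini-Hochberg adjustment at 0.05; tables and figures were made in Python 3.11.15. No-device libraries 1 and 3 were averaged, leaving 3 progesterone and 2 no-device samples. Of 37508 genes, 8995 without a name, the 27639 with at least 1 FPKM in at least 2 of the 5 samples were tested. Estimated reads ranged from 1392558 to 2092612 per library. Brain was compared with stump and with blastema by an interaction term, with the other near-identical libraries, stump no-device 1 and 3 (0.269% of genes differing) and blastema progesterone 1 and 3 (0.487%), averaged in the same way. Alternatives were other pseudocounts, filters, scalings, a variance trend, all brain samples in one fit, separate libraries, a replicate block, limma-voom on estimated reads and each sample left out.

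Genes were named by rule: the 13 higher and 13 lower named genes with the smallest p among those with non-overlapping libraries, a mean of at least 5 FPKM in the higher group and the same sign in every fit that left out a sample; per list, the member with the smallest p in each direction and, for marker lists, the 2 most abundant; a fixed set of hormone, receptor and brain genes; and homeologs of the first set. Other genes, including homeologs and list members outside the rule, were chosen after their values were seen. The comparison, its members and all lists were chosen with earlier results of these data known.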

Additional observations from a re-analysis of the deposited data

Results flagged for a closer look

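The progesterone-device minus no-device difference, called the effect below, was unlike in brain and limb stump for 5 genes. This was by the interaction term of the limma fit (Benjamini-Hochberg adjusted p = 0.0402 for each). For LOC108696641 the brain effect minus the stump effect was -4.534 on the log2 scale, with all brain libraries at 0 and stump values of 35, 53.6 and 33.1 FPKM with progesterone and 0.36, 0.62 and 1.44 FPKM with no device. For traf3ip3.S it was -4.002, with 1.01 to 1.5 FPKM in progesterone brains and 0.82 to 1.55 FPKM in no-device brains, and stump values of 71.3, 57.4 and 76.6 FPKM with progesterone and 3.39, 3.89 and 2.69 FPKM with no device. For LOC108697719 it was -4.441 and for LOC733361 -3.84, and both also had high stump values with progesterone only. For the unnamed gene26746 it was 3.362, with stump values of 0 in each progesterone library and 9.91, 8.52 and 10.3 FPKM with no device, and all brain libraries at 0. The differences thus rest on the stump libraries, and under 2 other scalings none passed.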

How the results depend on the processing

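The count of genes past the threshold in brain, 1 with limma, was 51 with a pseudocount of 0.1, 3 with a pseudocount of 5, 2 with a mean of at least 5 FPKM, 2 with at least 10 estimated reads, 3 with a variance trend and 3 with limma-voom. It was 0 with all brain samples in one fit (893 genes at an unadjusted p under 0.05), 0 with 6 separate libraries (1986), and 0 to 0 when each sample was left out (1098 to 2270). LOC108717646 was not among the genes called with at least 10 estimated reads or limma-voom. The count stayed 1 with no filter and with 2 other scalings. With the replicate block on 6 separate libraries it was 0 (1816). Same-numbered libraries did not deviate together, with correlations of -0.0211, -0.07 and -0.0103 over 14601 genes. Because libraries within each group were not independent, these correlations cannot decide whether the numbers pair the samples.

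The brain minus stump count, 5, was 35 and 168 with pseudocounts of 0.1 and 5, 166 with a mean of at least 5 FPKM, 0 and 0 with median-of-ratios and upper-quartile scaling, 72 with a trend, 1038 with separate libraries, 423 with the replicate block and 0 to 2 with a sample left out. The brain minus blastema count, 0, was 109 and 18 with those pseudocounts, 3 with the stricter filter, 2 with a trend, 52 with separate libraries and 3 with the replicate block. The settings for these 2 comparisons and the filter on estimated reads were chosen after seeing the data. The cause of these changes was not tested. Counted once per list and alternative setting, 571 values of a list median moved by less than their replicate spread and 41 by more. Among these values 67 differed in sign from the main value. The spread could be wide. The pituitary median, -0.64 in the main fit and 0.12 without no-device library 2, counted as moved by less, with a spread of 1.11. Values near 1 FPKM rest on few reads, and the no-device group holds only 2 distinct samples.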
